A study of Mus musculus with 96 samples.

Results

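The STAT3 intervals of Rybp+/+ mouse embryonic stem cells (ESCs) that lie away from H3K4me3 were examined. The members are the intervals of the Rybp+/+ STAT3 peak list, each start and end counted once, that shared no base with any interval of the H3K4me3 list from the same genotype. There were 422 of them among 2363 Rybp+/+ STAT3 intervals, and the other 1941 overlapped H3K4me3 by at least 1 bp. The series profiled chromatin and RNA in ESCs in which RYBP or STAT3 was removed, changed or induced. Rybp+/+ denotes untreated Rybp-floxed ESCs of line R7.15, and Rybp-/- denotes the same line after 4 days in 5 µM 4-hydroxytamoxifen, which starts deletion of the floxed gene. Both genotypes, and every other group used here, grew with 1000 U/mL leukemia inhibitory factor (LIF). Each Rybp genotype has 1 STAT3 library, while the H3K4me3, H3K27ac and WDR5 lists each stand for 2 libraries merged by the authors. The Tet.Rybp.Stat3 lists come from ESCs labelled line R1 that carry a DOX-induced Rybp and Stat3 integration, without DOX (DOX-) or with it (DOX+), and each stands for 2 libraries. RING1B lists came from R1 ESCs with a control hairpin (shEV) or a hairpin against Stat3 (shStat3), 1 library each, and from the DOX- and DOX+ cells, 2 libraries each. RNA-seq, with 2 libraries per group, came from the Rybp genotypes and from rTRS ESCs without treatment (NTC) or with DOX. The rTRS cells are labelled with the same DOX-induced integration. Every group is a single ESC line, and the labels name no separate clones.

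STAT3 is the transcription factor that LIF signaling activates through the receptor chains LIFR and gp130 and the JAK kinases, and in mouse ESCs it sustains self-renewal. Phosphorylated STAT3 dimers bind a palindrome of TTC and GAA separated by a short spacer. H3K4me3 marks active and CpG-rich promoters, and WDR5 is a core subunit of the complexes that deposit it. H3K27ac marks active promoters and enhancers, so a transcription factor peak without H3K4me3 and with H3K27ac has the marks usually read as a distal enhancer. RYBP and RING1B are subunits of Polycomb repressive complex 1, which ubiquitinates histone H2A.

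The sequences under the summits show the kinds of region in the list. The first lines give, for the members with the stricter palindrome TTCCNGGAA, the 201 bp centred on the summit with TTCNNNGAA matches in capitals. All 3 of these members also lay on H3K27ac, and all sequences are mm9, plus strand.
Tmem51 intron or noncoding exon, chr4:141626869-141627069: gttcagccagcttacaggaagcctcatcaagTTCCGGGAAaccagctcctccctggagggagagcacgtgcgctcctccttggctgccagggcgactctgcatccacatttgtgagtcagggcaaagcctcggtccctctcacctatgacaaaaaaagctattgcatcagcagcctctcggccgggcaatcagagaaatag
outside genes near Ccdc129, chr6:55741994-55742194: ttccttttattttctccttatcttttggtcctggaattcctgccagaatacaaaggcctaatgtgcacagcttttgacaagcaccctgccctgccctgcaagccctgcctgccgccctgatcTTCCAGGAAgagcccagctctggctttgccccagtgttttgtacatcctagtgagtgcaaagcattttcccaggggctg
Ptprf coding exon, chr4:117908786-117908986: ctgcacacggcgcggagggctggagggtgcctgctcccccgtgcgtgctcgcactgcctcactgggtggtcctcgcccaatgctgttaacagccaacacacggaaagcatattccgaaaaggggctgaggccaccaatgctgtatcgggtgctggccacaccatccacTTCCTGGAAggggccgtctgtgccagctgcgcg
The next lines give the 121 bp centred on the summit of members without that match, with runs of at least 4 G or 4 C in capitals. They are shown because each kind recurs below: a GGC-rich exon at the start of Arid3b, a GAAA repeat, a CA repeat beside Parp1, a GC-rich stretch on chromosome 17, an AT-rich repeat at Gm10800, a coding exon of Brd3 and the member nearest to Pim1.
Arid3b, chr9:57644345-57644465: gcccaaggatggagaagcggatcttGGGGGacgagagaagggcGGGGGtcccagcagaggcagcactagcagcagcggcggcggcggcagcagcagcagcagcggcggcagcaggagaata
GAAA repeat, chr16:3351159-3351279: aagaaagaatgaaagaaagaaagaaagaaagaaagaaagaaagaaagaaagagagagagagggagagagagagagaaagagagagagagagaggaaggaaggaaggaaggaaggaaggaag
beside Parp1, chr1:182496090-182496210: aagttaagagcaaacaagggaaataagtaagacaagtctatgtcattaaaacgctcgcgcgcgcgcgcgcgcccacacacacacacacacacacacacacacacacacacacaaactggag
GC-rich stretch, chr17:39985327-39985447: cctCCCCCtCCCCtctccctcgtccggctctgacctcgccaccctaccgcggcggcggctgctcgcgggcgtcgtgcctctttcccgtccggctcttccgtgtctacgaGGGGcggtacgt
Gm10800, chr2:98507093-98507213: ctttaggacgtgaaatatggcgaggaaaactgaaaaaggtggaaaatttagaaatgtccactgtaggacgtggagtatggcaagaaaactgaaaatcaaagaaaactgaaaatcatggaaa
Brd3 coding exon, chr2:27309779-27309899: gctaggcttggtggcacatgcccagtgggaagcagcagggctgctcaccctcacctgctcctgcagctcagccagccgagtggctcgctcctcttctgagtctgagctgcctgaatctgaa
nearest to Pim1, chr17:29637673-29637793: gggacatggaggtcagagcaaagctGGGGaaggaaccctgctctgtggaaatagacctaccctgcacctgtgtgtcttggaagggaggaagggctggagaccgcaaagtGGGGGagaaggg

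The members were chosen by 2 measured values, the positions of the STAT3 and of the H3K4me3 intervals in Rybp+/+, so their distance from H3K4me3 is a description. The median gap to the nearest Rybp+/+ H3K4me3 interval was 13973 bp (range 2 to 844727 bp), and 43 members lay within 1 kb of one. Just inside the rule were members 2 bp from H3K4me3 at Ap3m1 (chr14:21871067-21871463), 15 bp at Cpa6 (chr1:10685428-10685733) and 40 bp at Lamc3 (chr2:31749211-31749748), with fold enrichments of 6.16, 5.19 and 4.73. Just outside it were intervals that overlapped H3K4me3 by 5 bp near Sulf2 (chr2:166041512-166042157), by 15 bp near Gm9104 (chr17:45595906-45596278) and by 37 bp at Ctdp1 (chr18:80666146-80666476), with fold enrichments of 4.35, 7.50 and 4.16. The fold enrichments on the 2 sides of the rule overlapped.

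Fold enrichment is the ratio of STAT3 reads at the summit to the local background of the authors' peak caller, and the -log10 q is the caller's significance. Members had a median fold enrichment of 4.96 (quartiles 4.34 and 5.70, range 2.34 to 11.3) and a median -log10 q of 3.55 (range 1.35 to 115). Intervals on H3K4me3 had medians of 4.18 and 4.40. Members thus had the higher median ratio and the lower median significance. They were also narrow: 173 of 422 (41.0%) had the smallest width in the list, 301 bp, as did 208 of 1941 (10.7%) on H3K4me3. An identical pair of fold enrichment and q was shared by 254 members (60.2%), of which 26 had 5.19 and 3.41. Such sharing was more common on H3K4me3, at 1529 of 1941 intervals (78.8%). The depth of the STAT3 libraries is unknown from the files, and the STAT3 values have no replicate in either Rybp genotype, so intervals below are 95% intervals on shares of regions that cover counting error only.

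**Figure D1:**
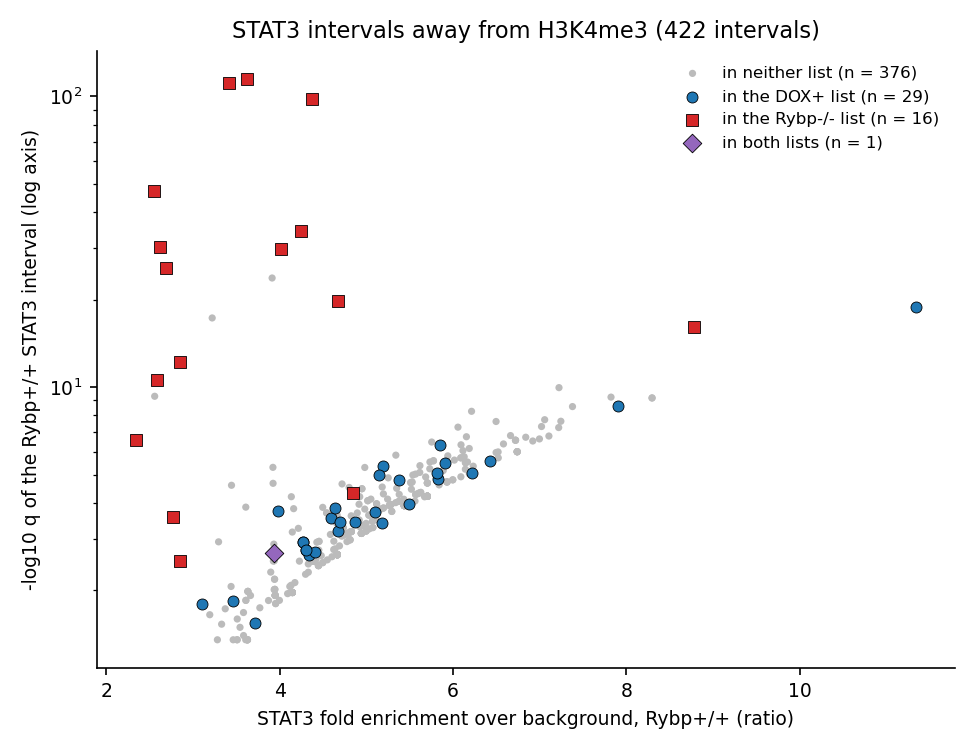
STAT3 fold enrichment (x axis, ratio) against -log10 q (y axis, log scale) for the 422 members, each point 1 interval, marked by presence in the Rybp-/- or DOX+ STAT3 list. Most members follow 1 rising band. Of the 15 members with -log10 q of at least 10, 12 were in the Rybp-/- list, and 11 of the 17 members in that list had a fold enrichment under 4.

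Members sat in gene bodies and between genes. By the GENCODE annotation on mm9, 143 (33.9%) lay in an intron or noncoding exon of a coding gene (called intronic below), 90 (21.3%) touched a coding exon, 22 (5.21%) touched untranslated exon sequence, 12 lay in other annotated genes and 155 (36.7%) lay outside genes. The median distance to a coding transcription start site (TSS) was 21192 bp. A TSS lay within 1 kb of 34 members (8.06%), against 1471 of the 1941 intervals on H3K4me3 (75.8%). The 201 bp around the summit had a median GC content of 54.7% in members and 73.1% on H3K4me3. Windows moved 5 kb to either side of the members had a median of 47.3% GC, so the members lay between their flanks and the intervals on H3K4me3.

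**Figure D2:**
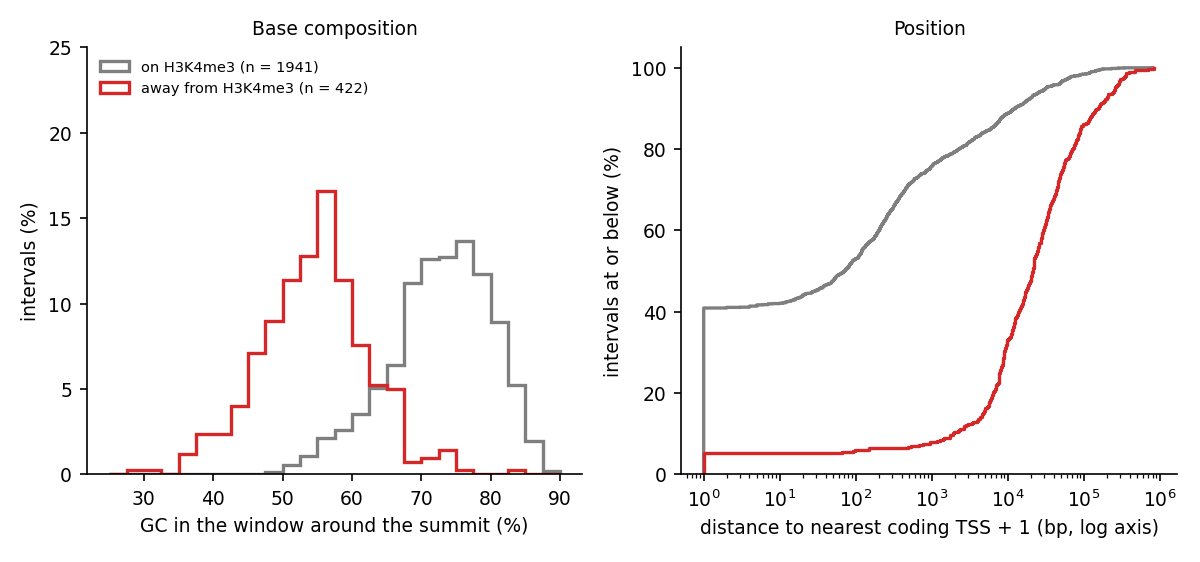
Left, GC content of the 201 bp around each STAT3 summit (x axis, %; y axis, % of intervals). Right, cumulative share of intervals (y axis, %) by distance to the nearest coding TSS plus 1 bp (x axis, log scale). Red lines are the 422 members and grey lines the 1941 intervals on H3K4me3. The members centre on 54.7% GC and 21192 bp, against 73.1% GC and 71 bp.

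H3K27ac was uncommon at the members. In Rybp+/+ ESCs 37 of 422 members (8.77%, Wilson interval 6.43 to 11.9) shared a base with an H3K27ac interval. Of all Rybp+/+ STAT3 intervals 52.0% did so, and of those on H3K4me3 61.4%. The difference between members and intervals on H3K4me3 was -52.6 percentage points (Newcombe interval -55.8 to -48.8). In Rybp-/- ESCs 47 members (11.1%, 8.48 to 14.5) lay on H3K27ac, against 57.0% of all Rybp+/+ STAT3 intervals and 66.9% of those on H3K4me3. H3K27ac was present in both genotypes at 28 members, in Rybp+/+ alone at 9, in Rybp-/- alone at 19, and in neither at 366 (86.7%). Each genotype has 1 merged H3K27ac list, so the gains and losses between genotypes have no test. At -log10 q of at least 5 in both lists the order of the genotypes turned, with 7 of 96 members on H3K27ac in Rybp+/+ (7.29%) and 6 in Rybp-/- (6.25%). A wider search found an H3K27ac interval within 1 kb of 74 members (17.5%) and within 10 kb of 178 (42.2%), against 64.3% and 72.5% of intervals on H3K4me3.

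Where members did carry H3K27ac it was of middling strength for that mark. The median percentile of their fold enrichment within the Rybp+/+ H3K27ac list was 55.4 (n = 37), against 90.0 for the 1191 STAT3 intervals on both marks. The strongest was chr6:39382193-39382515, outside genes and 11732 bp from the TSS of Mkrn1, an E3 ubiquitin ligase, with an H3K27ac fold enrichment of 44.9 in Rybp+/+ (percentile 99.5) and 22.6 in Rybp-/- (percentile 96.2). Next came chr17:66819710-66820121 near 1110012J17Rik, at 36.4 and 15.9. These regions ranked at percentile 92.6 or above in both H3K27ac lists, while their STAT3 fold enrichments, 5.08 and 3.94, were ordinary among the members.

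Other H3K27ac-bearing members lay inside annotated genes. The interval at chr17:47922849-47923183, in a coding exon at a TSS of Tcfeb, which encodes a regulator of lysosome genes, had H3K27ac fold enrichments of 12.9 in Rybp+/+ and 11.7 in Rybp-/-. A member in a coding exon of Ptprf, a receptor tyrosine phosphatase (chr4:117903965-117904265), had 11.7 and 8.66. Another in the same gene is the Ptprf sequence printed above and had 3.36 and 3.15. An intronic member of Cdh1, the gene of E-cadherin (chr8:109164815-109165140), had 6.52 and 5.80. These 4 regions kept an H3K27ac interval in both genotypes. The intronic member of Ttc7 (chr17:87749780-87750407) had 7.09 in Rybp+/+ (percentile 76.5) and 19.3 in Rybp-/- (percentile 94.6), each percentile within its own list.

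The 19 members with H3K27ac in Rybp-/- alone had a median percentile of 31.1 in the Rybp-/- list. The strongest were an intronic member of Ndst1, a heparan sulfate sulfotransferase (chr18:60905316-60905626, fold enrichment 10.4), and an intronic one of Ttc7 (chr17:87777671-87778082, 9.63). Others lay near Synpo, Col2a1, Gadd45g and Mical2, whose RNA is described below. The 9 with H3K27ac in Rybp+/+ alone reached at most percentile 59.5, at Por (chr5:136162243-136162543), which encodes the reductase that feeds electrons to cytochrome P450 enzymes.

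**Figure D3:**
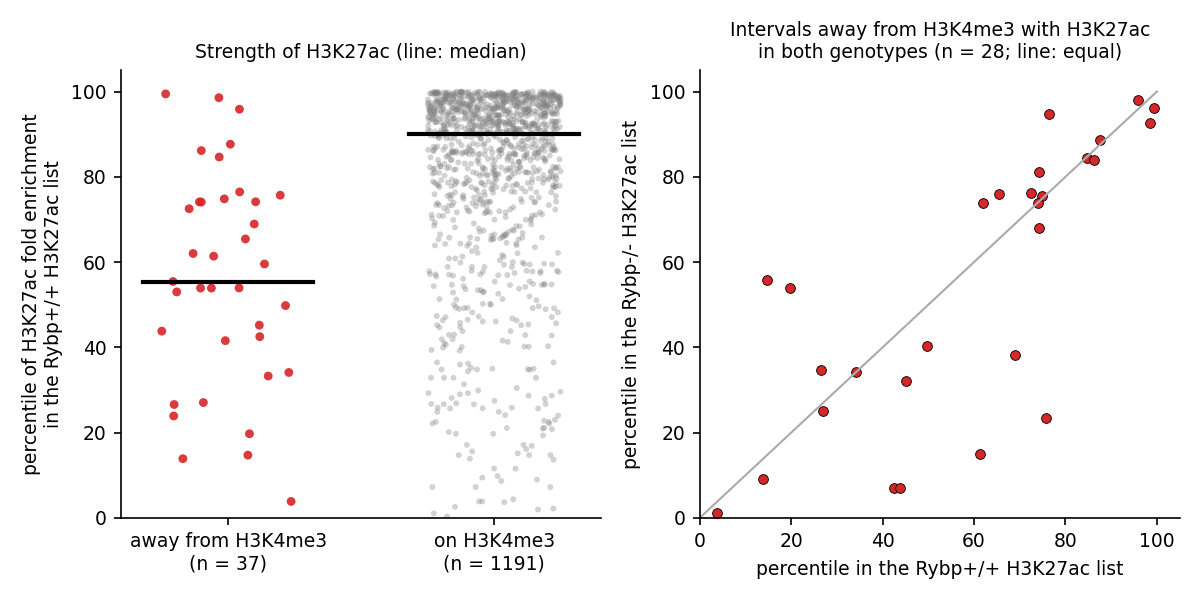
Left, percentile of H3K27ac fold enrichment within the Rybp+/+ H3K27ac list for the 37 members and the 1191 other STAT3 intervals with H3K27ac (points are intervals, black lines medians of 55.4 and 90.0). Right, the percentile in the Rybp+/+ list (x axis) and in the Rybp-/- list (y axis) for the 28 members with H3K27ac in both genotypes, with a line of equality.

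Few members recurred in the Rybp-/- STAT3 list. It held 17 of 422 (4.03%, Wilson interval 2.53 to 6.36), against 425 of the 1941 intervals on H3K4me3 (21.9%) and 18.7% of all Rybp+/+ STAT3 intervals. The difference was -17.9 percentage points (Newcombe interval -20.3 to -14.9). At -log10 q of at least 5 in both lists 13 of 96 members recurred (13.5%, 8.09 to 21.8), a share not taken for intervals on H3K4me3. The Rybp-/- list itself had 1917 intervals, of which 341 (17.8%) lay away from Rybp+/+ H3K4me3, a share like the 17.9% of the Rybp+/+ list. Both genotypes thus had similar shares of such intervals, and these were mostly at different places.

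The members that recurred in Rybp-/- had high significance and low fold enrichment in Rybp+/+. Their median fold enrichment was 3.41 (percentile 16.5 of the Rybp+/+ list), against 4.96 (percentile 70.8) for all members. Of the 15 members with -log10 q of at least 10, 12 recurred (80.0%, 54.8 to 93.0), against 43 of the 92 such intervals on H3K4me3 (46.7%, 36.9 to 56.9), so the order of the 2 sets was the reverse of that over the whole list, with intervals that overlap. Of the 118 members between 3 and 4, 1 recurred (0.847%), against 18.2% on H3K4me3. When the whole STAT3 list was cut into 4 equal groups by fold enrichment, 9 of 31 members in the lowest group recurred (29.0%), near the 27.0% of intervals on H3K4me3 in that group, and 1 of 191 in the highest group did (0.524%), against 21.8%. The GC-rich interval chr17:39984926-39985737, within the annotated gene AY036118, had the highest significance of all members, with -log10 q 115, a fold enrichment of 3.63 in Rybp+/+ and 3.60 in Rybp-/-. Its neighbor chr17:39980152-39983776 was the widest member at 3625 bp and had 3.41 and 3.38. An interval on chromosome 11, chr11:108872951-108873405, had 4.37 and 4.59.

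Repeated sequence was frequent in this group. Members in which at least 50% of 32-base words occur more than once in mm9 numbered 20 of 422 (4.74%), against 3 of 1941 on H3K4me3 (0.155%), and 6 of the 17 recurrent members were among them. The AT-rich interval at Gm10800 (chr2:98506770-98507497; 65.6% of words multi-copy) had a fold enrichment of 2.55 in Rybp+/+, lay at percentile 0.991 of the Rybp-/- list, and shared 106 of its 531 words with the recurrent member chr12:3109762-3110220. Another 3 recurrent members, from chrX:166426958-166427297 to chrX:166443433-166443751, lay in the Mid1 gene, which encodes a microtubule-associated ubiquitin ligase. Without multi-copy members recurrence in Rybp-/- was 11 of 402 (2.74%), an alternative chosen after seeing the data. Some multi-copy word was present in 15 of the 17 recurrent members, against 133 of all 422 members (31.5%). Words were counted in the assembled chromosomes, so copies that the assembly leaves out are missed. The part of repeated sequence in the recurrence was not tested.

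Among recurrent members of mostly single-copy sequence, Arid3b stood out by strength. Arid3b encodes an AT-rich interaction domain protein that binds DNA, and the interval chr9:57644027-57644640 covers a coding exon at a TSS. It had a fold enrichment of 8.79 and -log10 q of 16.1 in Rybp+/+ and a fold enrichment of 7.90 in Rybp-/-, at percentiles 99.4 and 98.6 of the 2 lists. No Rybp+/+ H3K4me3 interval lay within 29336 bp, though an H3K4me3 interval of percentile 20.0 covered it in Rybp-/-. It was in neither DOX list and had no H3K27ac in either genotype. The coding exon of Brd3, a bromodomain protein that binds acetylated histones (chr2:27309640-27310153), was the 1 member found in both the Rybp-/- and the DOX+ list. Its STAT3 fold enrichment was 3.94 in Rybp+/+, 6.73 in Rybp-/- and 4.15 in DOX+, and it had H3K27ac in both genotypes.

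In the Tet.Rybp.Stat3 cells the contrast with intervals on H3K4me3 was wider. The DOX- list, with 2816 intervals, held 1 member (0.237%, Wilson interval 0.0418 to 1.33), against 24.6% of intervals on H3K4me3 and 20.2% of all. The DOX+ list, with 30663 intervals, held 30 members (7.11%, 5.02 to 9.97), against 94.0% of intervals on H3K4me3 and 78.5% of all. The difference in the DOX+ list was -86.9 percentage points (Newcombe interval -89.2 to -83.8). Among the top 1917 intervals of each STAT3 list, 1 of 309 members was in DOX+ (0.324%), 1 in DOX- (0.324%) and 15 in Rybp-/- (4.85%). The share in DOX+ thus depends on how many intervals of that list are taken. No share of intervals on H3K4me3 was taken at this setting. The DOX+ list itself had 8857 intervals away from Rybp+/+ H3K4me3. Within each of the 4 groups of fold enrichment the DOX+ list held between 6.15% and 10.0% of members and between 89.5% and 98.4% of intervals on H3K4me3. In all, 46 members (10.9%) were in at least 1 of the 3 other STAT3 lists, against 94.5% of intervals on H3K4me3, and no member was in all 3 (0 of 422, which allows up to 0.902%).

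The Tmem51 interval was the strongest member and the only one in the DOX- list. It lies at chr4:141626760-141627168, in an intron or noncoding exon of Tmem51, 13051 bp from the nearest coding TSS. Its STAT3 fold enrichment was 11.3 in Rybp+/+ (percentile 99.7), 8.61 in DOX- (percentile 94.8) and 12.5 in DOX+ (percentile 98.7), and it was not in the Rybp-/- list. H3K27ac fold enrichment there was 25.7 in Rybp+/+ and 29.1 in Rybp-/-, and WDR5 was listed in Rybp-/- alone. An H3K4me3 interval ended 87 bp away, so the region is no member when 1 kb of distance from H3K4me3 is asked for. The match TTCCGGGAA was centred 65 bp from the summit.

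The other 29 members in the DOX+ list were weaker there. Over all 30 the median percentile in the DOX+ list was 41.9, against 79.0 for the 1824 intervals on H3K4me3. Second to Tmem51 was a member with a repeated GGGGG unit, intronic in 6720456H20Rik (chr14:49095313-49095613), at 10.9, followed by an interval outside genes near Asb13 (chr13:3711454-3711781), at 7.41. Further DOX+ members had fold enrichments in DOX+ of 4.75 at Aplnr, the apelin receptor (chr2:84977106-84977406), 4.36 near Fgfr3, a fibroblast growth factor receptor (chr5:34047952-34048320), and 4.66 near Foxc2, a forkhead transcription factor (chr8:123672255-123672650). H3K27ac was present in Rybp+/+ at 6 of the 30 (20.0%, 9.51 to 37.3) and at 31 of the 392 members outside the DOX+ list (7.91%, 5.63 to 11.0), and these 2 intervals overlap. In Rybp-/- H3K27ac was present at 11 of the 30 (36.7%, 21.9 to 54.5) and at 36 of the 392 (9.18%, 6.71 to 12.5), and these do not overlap.

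**Figure D4:**
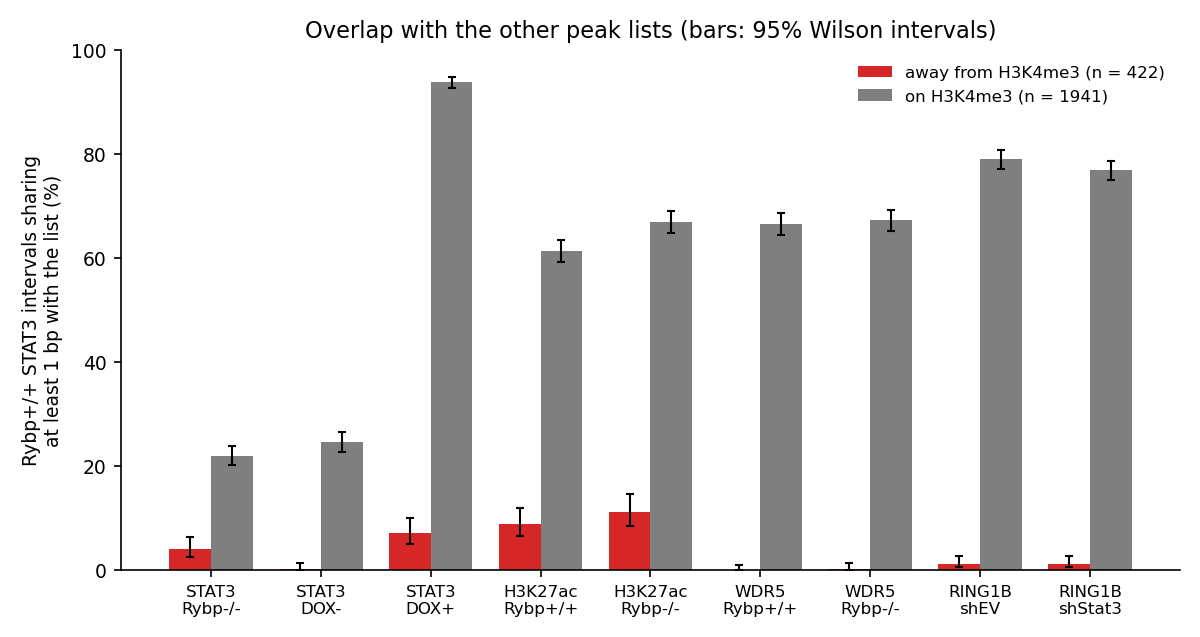
Share of Rybp+/+ STAT3 intervals (y axis, %) that shared at least 1 bp with each list on the x axis, for the 422 members (red) and the 1941 intervals on H3K4me3 (grey), with 95% Wilson intervals. The shares of members run from 0 for WDR5 in Rybp+/+ to 11.1% for H3K27ac in Rybp-/-, and those on H3K4me3 from 21.9% to 94.0%.

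The strongest members by fold enrichment were a mixed set. After Tmem51 and Arid3b came the GAAA repeat chr16:3351070-3351373 (8.30; 79.1% of words multi-copy), chr5:5940624-5940997 (8.30), chr12:66527727-66528230 (7.91), chr9:24778779-24779088 (7.91), the CA repeat 2790 bp from the TSS of Parp1 (chr1:182495974-182496296; 7.82), which encodes a poly(ADP-ribose) polymerase of DNA repair, and an intronic CA repeat of Rgs3, a regulator of G-protein signaling (chr4:62356852-62357221; 7.38). Of these 6, all but the Rgs3 repeat lie outside genes. Of the 8 strongest, 1 had H3K27ac (Tmem51), 1 recurred in Rybp-/- (Arid3b), and 2 recurred in DOX+ (Tmem51 and chr9:24778779-24779088).

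WDR5 and RING1B were listed at few members. No member lay on Rybp+/+ WDR5 (0 of 422, which allows up to 0.902%), against 66.5% of intervals on H3K4me3 and 54.6% of all, and 1 lay on Rybp-/- WDR5, against 67.2% of intervals on H3K4me3. The shEV RING1B list held 5 members (1.18%, 0.507 to 2.74), against 79.0% and 65.1%. The shStat3, DOX- and DOX+ RING1B lists held 5 members each, against 76.9%, 91.3% and 81.9% of intervals on H3K4me3. The shEV list included the intronic member of Tbx15, a T-box transcription factor (chr3:99065350-99065658), and one 1755 bp from the TSS of Hrk, a proapoptotic BCL2-family gene (chr5:118617592-118618018). Both of these were also in the shStat3 and DOX+ RING1B lists. In Rybp-/- ESCs 21 members (4.98%) shared a base with H3K4me3, against 82.6% of all Rybp+/+ STAT3 intervals, and 99.4% of those on Rybp+/+ H3K4me3. Their median percentile in the Rybp-/- H3K4me3 list was 16.6, and the highest, 55.5, was the Ap3m1 interval 2 bp from Rybp+/+ H3K4me3.

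The STAT palindrome was no more frequent at the members than at comparison windows, within counting error. TTCNNNGAA, which reads the same on both strands, occurred in the 201 bp around 17 of 422 summits (4.03%, Wilson interval 2.53 to 6.36). It occurred in 3.66% of intervals on H3K4me3, in 6.87% and 6.43% of windows moved 5 kb up and down from the members, in 5.30% of Rybp+/+ H3K27ac intervals and in 5.18% of DOX+ STAT3 intervals away from H3K4me3. The Newcombe intervals of all 5 of these differences included 0. Windows moved 1 kb up and down held it more often, in 7.58% (5.42 to 10.5) and 8.31% (6.04 to 11.3). No difference interval was taken for those windows. None of the 17 members of the Rybp-/- list held it. Among members with Rybp+/+ H3K27ac it occurred in 5 of 37 (13.5%, 5.91 to 28.0) and among those without in 12 of 385 (3.12%, 1.79 to 5.37), and these intervals do not overlap. The stricter TTCCNGGAA, which is contained in TTCNNNGAA, occurred in 0.711% of members and 1.85% of intervals on H3K4me3 (difference -1.14 points, Newcombe interval -1.99 to 0.31), and the intervals of its other 4 differences also included 0. The members with it are the Tmem51, Ccdc129 and Ptprf windows printed above.

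G-rich sequence was more frequent than in the flanks. GGGGNGGGG on either strand occurred in 15.2% of member windows (12.1 to 18.9), against 5.21% and 7.14% of windows moved 5 kb, 5.99% of H3K27ac intervals, 16.5% of DOX+ STAT3 intervals away from H3K4me3 and 22.8% of intervals on H3K4me3. The differences from the moved windows were 9.95 points (Newcombe interval 5.93 to 14.1) and 8.02 points (3.79 to 12.3). This motif was chosen after sequences of these members had been seen, and the members also had more GC than their flanks. The chromosome 17 sequence printed above holds a match on the minus strand. These matches describe letters in a window, and binding at them was not tested.

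Of known LIF and pluripotency genes, Pim1 was nearest to a member. Of the 67 genes in 4 lists (LIF-STAT3 pathway, naive, core, and primed or formative pluripotency), 1 had a TSS nearest to a member within 50 kb, and 20 had one nearest to an interval on H3K4me3. Over all coding genes 304 were nearest to a member and 1762 to an interval on H3K4me3, and whether the listed genes differ from these was not tested. Pim1 is a serine/threonine kinase gene long known as a STAT3 target, and had a member outside genes 9821 bp from its TSS (chr17:29637578-29637952; fold enrichment 4.93, -log10 q 3.30). That member was in none of the other STAT3 lists and had no H3K27ac, and Pim1 also had a STAT3 interval on H3K4me3. The 20 genes near intervals on H3K4me3 included Stat3, Socs3, Junb, Bcl3, Klf4 and Pou5f1.

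RNA-seq addressed whether genes near the members differed between the Rybp genotypes. Of the 304 genes with a TSS nearest to a member within 50 kb, 249 passed the filter on low counts. By edgeR's quasi-likelihood test at an adjusted p under 0.05, 70 were higher in Rybp-/- (28.1%, 22.9 to 34.0) and 60 lower (24.1%, 19.2 to 29.8). Over all genes tested, 22.8% were higher and 22.7% lower, and over the coding genes tested, from which the nearest genes are drawn, 24.9% and 24.5%. The intervals of both shares near members include the share over coding genes. With the TSS within 10 kb, 24 of 111 genes were higher (21.6%) and 30 lower (27.0%), so the order of the shares turned. The median log2 fold change was 0.01, against 0.00 over all genes. Among genes nearest to intervals on H3K4me3, 25.6% were higher and 30.2% lower. The libraries held 75496499 to 81049618 counts on genes, with 2 libraries per genotype, and p-values measure the spread between these libraries. Rybp itself was at 109 and 109 CPM (the count scaled to a common library size) in Rybp+/+ and 25.0 and 25.2 in Rybp-/-. All 10 ESC markers were detected, with sums of 6253 and 6389 CPM in Rybp+/+ and 6641 and 6663 in Rybp-/-, and 5 were higher and 4 lower. The 5 fibroblast markers were all higher in Rybp-/- (sums 203 and 204 against 351 and 351 CPM), as were 4 of 5 trophoblast markers (26.4 and 28.5 against 31.8 and 34.7) and 3 of 6 primitive endoderm markers (7.74 and 8.99 against 16.9 and 15.5). Krt18 made up most of the trophoblast sums (22.0 and 24.4 against 26.4 and 29.4 CPM), and Cdx2, Elf5 and Gata3 stayed at or under 1.05 CPM. The part of all these markers in the results was not tested.

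Among member-near genes that passed the test at a mean of at least 5 CPM, the 5 largest falls were in Gadd45g, Tnfaip8, Frmd5, Phf21a and Elavl3. Gadd45g, a growth arrest and DNA damage response gene, was at 58.6 and 59.2 CPM in Rybp+/+ and 27.3 and 28.3 in Rybp-/- (log2 fold change -1.11, SE 0.05, edgeR adjusted p = 4.59e-18). Its member, chr13:51948785-51949222, was on an H3K27ac interval in Rybp-/- alone. Phf21a, which encodes a reader of unmethylated H3K4, was at 70.8 and 69.6 CPM against 39.9 and 40.5 (-0.83). Elavl3, a neuronal RNA-binding protein gene, was at 27.4 and 27.3 against 17.1 and 15.6 (-0.77). Tnfaip8 and Frmd5 fell by 1.00 and 0.96 on the log2 scale, and both also had a STAT3 interval on H3K4me3. These genes were chosen by the test, so the gap between the groups of each is no further evidence.

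By the same rule the 5 largest rises were in Itga7, Mical2, Synpo, Kalrn and Psap. Itga7, a laminin-binding integrin gene, was at 3.24 and 3.38 CPM in Rybp+/+ and 7.84 and 7.03 in Rybp-/- (log2 fold change 1.14, SE 0.13, edgeR adjusted p = 7.49e-09). Mical2, an actin-oxidizing enzyme gene, was at 4.08 and 4.06 against 9.18 and 8.89 (1.13), and Synpo, an actin-associated protein gene, at 3.70 and 4.31 against 7.74 and 7.56 (0.91). Kalrn, which also had a STAT3 interval on H3K4me3, was at 6.10 and 4.54 against 9.92 and 9.61 (0.85). Psap, the saposin precursor gene, was at 156 and 151 against 260 and 261 (0.74), and its intronic member (chr10:59753489-59753789) had H3K27ac in both genotypes. Psap had the highest level of these 5 genes. They too were chosen by the test, so groups that do not overlap add no evidence.

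The genes nearest to the strongest members were followed as well, with Pim1. Arid3b was at 60.8 and 60.2 CPM in Rybp+/+ and 42.8 and 40.8 in Rybp-/- (log2 fold change -0.56, edgeR adjusted p = 2.48e-11). Parp1 was at 913 and 933 against 780 and 790 (-0.26). Tmem51 was at 12.0 and 12.4 against 15.1 and 16.9 (0.36), and Rgs3 at 10.2 and 10.6 against 12.4 and 13.5 (0.29, edgeR adjusted p = 0.0076). Pim1 was at 89.5 and 92.6 against 92.2 and 93.0 (0.00, edgeR adjusted p = 0.99), and its 2 groups overlapped. Without the second Rybp-/- library Rgs3 no longer passed (0.23).

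The second RNA-seq comparison used rTRS ESCs, labelled with the same DOX-induced Rybp and Stat3 integration, without treatment (NTC) or with DOX, 2 libraries each. The libraries labelled DOX did not show the induction their label names at the gene level: Rybp was at 112 and 110 CPM in NTC and 102 and 101 in DOX (log2 fold change -0.15, edgeR adjusted p = 0.076), and Stat3 at 157 and 172 against 191 and 191 (0.20, edgeR adjusted p = 0.026). The counts cover annotated genes, and whether a transgene's reads enter them is not stated. Of 245 member-near genes tested, 86 were higher in the libraries labelled DOX (35.1%, 29.4 to 41.3; 23.0% of all genes and 24.9% of coding genes tested) and 41 lower (16.7%, 12.6 to 21.9; 20.4% of all and 21.6% of coding genes). Their median log2 fold change was 0.17, against 0.00 over all genes. Genes nearest to intervals on H3K4me3 had 32.3% higher and 19.5% lower. Of 5 trophoblast markers 4 rose, with sums of 66.3 and 59.0 CPM in NTC and 430 and 387 in DOX, and 8 of 10 ESC markers fell (sums 6775 and 6509 against 4281 and 4080 CPM). Of 6 primitive endoderm markers, with sums of 8.52 and 6.90 against 21.6 and 21.1 CPM, 1 rose (Dab2). Of 5 fibroblast markers 1 rose and 2 fell. What part these markers had in the results was not tested.

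Among member-near genes with a mean of at least 5 CPM that passed here, the 5 largest rises were in Tpm1, Dysf, Col2a1, Agpat3 and Gja1. Tpm1, the tropomyosin gene, was at 79.1 and 80.1 CPM in NTC and 794 and 754 in DOX (log2 fold change 3.27, SE 0.06, edgeR adjusted p = 4.8e-12). Dysf, a gene of membrane repair in muscle, was at 5.88 and 5.82 against 27.0 and 28.2 (2.22), and Col2a1, the type II collagen gene, at 5.63 and 5.30 against 25.7 and 25.4 (2.21). Agpat3, a lipid acyltransferase gene, was at 17.8 and 20.5 against 77.7 and 81.1 (2.04), and Gja1, the connexin 43 gene, at 48.0 and 49.8 against 174 and 182 (1.85). Since the test chose these genes, the gap between their groups is no further evidence. None of the 5 members was in the DOX+ STAT3 list, which held 7.11% of all members.

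By that rule the 5 largest falls were in Bai1, Tcfeb, 2410141K09Rik, Jarid2 and Mkrn1. Bai1, an adhesion G-protein-coupled receptor gene, was at 16.7 and 16.7 CPM in NTC and 4.50 and 5.45 in DOX (log2 fold change -1.76, SE 0.14, edgeR adjusted p = 4.7e-07). Tcfeb was at 45.7 and 45.7 against 19.2 and 18.8 (-1.28), and Mkrn1 at 814 and 792 against 414 and 424 (-0.96). Jarid2, a cofactor of Polycomb repressive complex 2, was at 538 and 566 against 266 and 281 (-1.03), and 2410141K09Rik fell by 1.19 on the log2 scale. Bai1 and Jarid2 also had a STAT3 interval on H3K4me3. The members of Tcfeb and Mkrn1 were among the 4 with the strongest Rybp+/+ H3K27ac. Over all 31 tested genes nearest to members with Rybp+/+ H3K27ac, 14 were higher and 5 lower. Of the other region genes, Rgs3 was higher (6.87 and 6.58 against 17.4 and 18.8 CPM, 1.41), as were Pim1 (54.3 and 49.3 against 85.3 and 79.1, 0.65) and Arid3b (61.5 and 66.1 against 92.1 and 99.7, 0.57), while Parp1 was lower (1900 and 1944 against 1320 and 1309, -0.56). Tmem51, whose member was the strongest in the DOX+ STAT3 list, was at 11.5 and 11.0 against 11.3 and 9.48 (-0.13, edgeR adjusted p = 0.48), and its groups overlapped.

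Genes near the members that recurred in DOX+ or carried H3K27ac were few. Of 17 tested genes nearest to members in the DOX+ STAT3 list, 3 were higher and 3 lower in the libraries labelled DOX (17.6% each, Wilson interval 6.19 to 41.0). Of 31 tested genes nearest to members with Rybp+/+ H3K27ac, 14 were higher (45.2%, 29.2 to 62.2) and 5 lower there, and in Rybp-/- 7 were higher and 12 lower (38.7%, 23.7 to 56.2). These intervals are wide. That of the rises in DOX lies above the shares over all genes and over coding genes but includes the 35.1% of genes nearest to any member and the 32.3% of genes nearest to intervals on H3K4me3, while that of the falls in Rybp-/- lies above the 22.7% of all genes but includes the 24.5% of coding genes. The others include both shares.

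**Figure D5:**
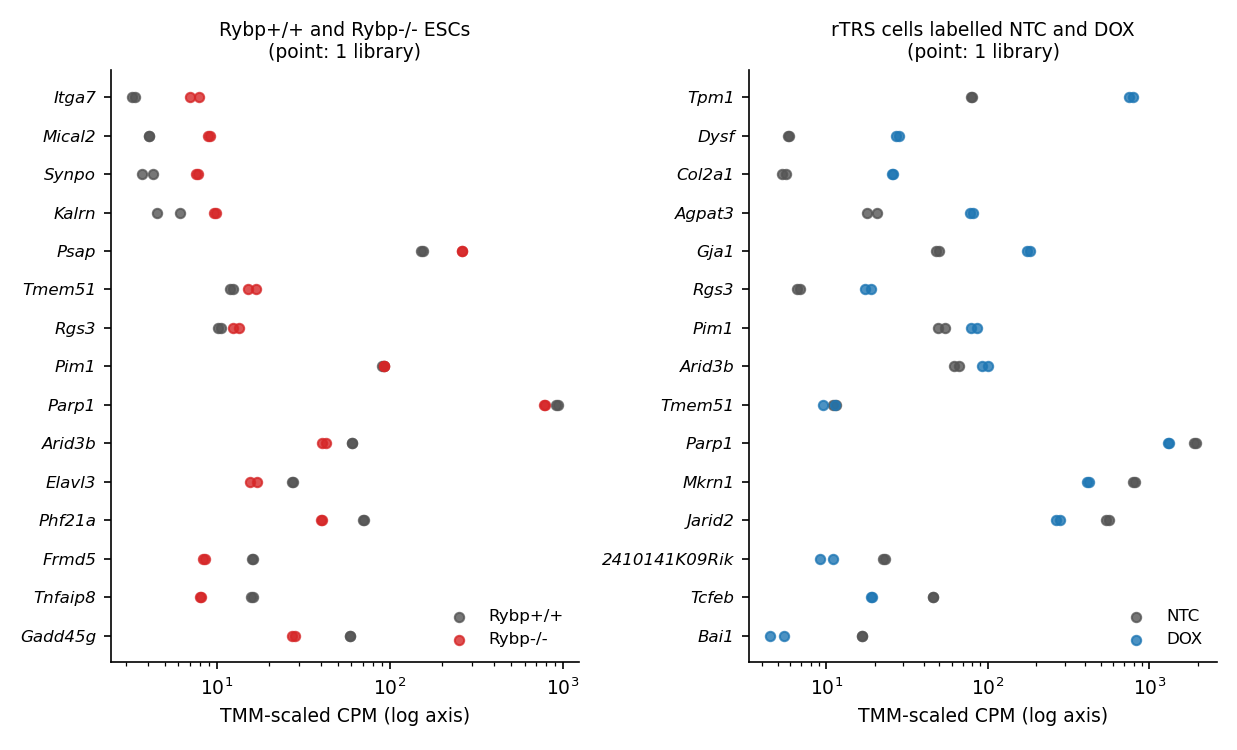
Expression of the named genes nearest to members (x axis, TMM-scaled CPM, log scale), each point 1 library. Left, Rybp+/+ (grey) and Rybp-/- (red) ESCs. Right, rTRS libraries labelled NTC (grey) and DOX (blue). Genes run from the largest fall at the bottom to the largest rise at the top, and Tpm1 moves from about 80.1 CPM to 754 or more.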

How the data were processed

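The deposited peak lists give intervals on mm9 with a fold enrichment ratio over background and a -log10 q, both as the authors' peak caller wrote them. For the STAT3 lists the caller, its threshold, the antibody and the merging of libraries are not given in the sources used here. The counts per gene are whole reads deposited by the authors after Trim Galore, STAR and HTSeq, per the labels. Rows that name no gene (13.7 to 14.1% of reads in the Rybp table, 24.9 to 26.5% in the rTRS table) were left out, which left 50312058 to 53779354 counts on genes per rTRS library. All per-sample columns of both tables were mapped. One DOX column carries a prefix of its own and was used by group, its number serving the replicate block alone. The labels do not say whether replicates came from separate cultures.

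An overlap is at least 1 shared bp. Fold enrichments of a region in several lists are given side by side as deposited, with no scaling between lists, and no difference between them was tested. Shares carry 95% Wilson intervals, and their differences Newcombe intervals. Positions, gene names and sequences come from the NCBIM37 genome (mm9) and its GENCODE annotation, and multi-copy sequence was measured as 32-base words found more than once on either strand. A gene was assigned to a member if its coding TSS was the nearest and within 50 kb. RNA was tested with edgeR 4.0.16 (quasi-likelihood, TMM, filterByExpr, Benjamini-Hochberg over all genes), with DESeq2 1.42.0 as an alternative. Counts were also simulated with a spread between libraries that was set by hand and was the same for all genes. On them edgeR recovered 88.9% of genes changed by 1 on the log2 scale in the Rybp design and 88.8% in rTRS. That spread was not estimated from the data, so the recovery does not show what the test finds in these libraries. Windows for the motif search reach 100 bp to each side of the summit.

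Regions named are the 8 members of highest fold enrichment, any nearest to a gene of the lists, and the 3 nearest on each side of the rule. No member was in all 3 other STAT3 lists. Genes named are those of the regions plus the 5 largest falls and 5 largest rises with a mean of at least 5 CPM. Other regions, and genes named beside them, were chosen after their values were seen. The members and the lists were chosen with earlier results of these data known. The sequence and own values of one member, which stays in all counts, are not reported here.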

Additional observations from a re-analysis of the deposited data

How the results depend on the processing

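A stricter STAT3 threshold (-log10 q of at least 5) left 96 of the 422 members. With that threshold in both lists H3K27ac in Rybp-/- fell to 6.25%, recurrence in DOX+ to 4.17%, and recurrence in Rybp-/- rose to 13.5%, where fewer members remain and those of highest significance weigh more. H3K27ac in Rybp-/- was 8.06% when an overlap had to cover at least 50% of the member, and 8.06% when the summit had to lie inside. Recurrence in DOX- was 0 when members had to lie 1 kb from H3K4me3, since the Tmem51 interval is then no member. Recurrence in DOX+ was 0.324% among the top 1917 intervals of each STAT3 list. The palindrome was found in 8.53% of whole member intervals, a search not made in the comparison sets. As TTCCNGGAA it was found in 0.711% of member windows. Genes near members that passed the test numbered 54 of the 130 in Rybp-/- and 60 of the 127 in DOX when the TSS had to lie within 10 kb, since fewer genes are then counted. Leaving out each library gave 109 to 122 and 112 to 121. Pim1 in Rybp-/- changed sign around 0 at -0.001 with DESeq2, at -0.0045 with no filter on low counts and between -0.0276 and 0.0212 without single libraries. Tmem51 in DOX lay between -0.272 and 0.0044 without single libraries. Neither gene passed the test. With the replicate block 131 genes near members passed in Rybp-/- and 160 in DOX, where the number of 1 library was read from its column name, and the block changed no call of a named gene. The deviations of same-numbered libraries had a correlation of -6.25e-05 in the Rybp table and 0.20 in the rTRS table. With 2 pairs and no label naming a shared batch, the libraries share only a number. The other 49 alternatives tried for these shares and counts stayed within the spread or within 1.5 times. The alternative on soft-masked repeats was not run because the genome copy carries no masking, and multi-copy words took its place. The shares of members rest on single lists, so the spread between libraries could not be measured, and regions outside the threshold of the authors' caller cannot be told apart from regions with no STAT3.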

Other observations

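The 3 other STAT3 lists also held intervals away from Rybp+/+ H3K4me3. Their H3K27ac shares are given as counted, and differences between them were not tested. Of 8857 such intervals in the DOX+ list 1096 (12.4%) shared a base with Rybp+/+ H3K27ac. Of 341 in the Rybp-/- list 27 did (7.92%), and of 750 in the DOX- list 36 did (4.80%). The Rybp+/+ members, at 8.77%, lay between the DOX- and DOX+ values. The G-rich motif GGGGNGGGG was found in 16.5% of the DOX+ windows and 16.7% of the Rybp-/- windows, near the 15.2% of the members, and in 6.80% of the DOX- windows. The DOX- windows also had the lowest median GC, 47.3%, against 55.7% in DOX+ and 54.7% in Rybp-/-. The DOX- and DOX+ lists come from 1 line with 2 libraries each and differ in length (2816 and 30663 intervals). The Rybp genotypes are another line, so line and treatment cannot be told apart between the Rybp and the DOX lists.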
